A study of Sus scrofa with 92 samples.

Results

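Body position is written into tissues by transcription factors that are switched on in the embryo and often stay on after birth. The levels of 6 such factors were followed here in pigs: HOXA7, HOXA10 and HOXC6 of the HOX family, and ZIC1, IRX3 and TBX5, which are positional factors of other families (zinc finger, Iroquois homeobox and T-box). They were found by matching gene symbols to pig Ensembl gene IDs, and each symbol matched 1 of the 25322 gene IDs in the expression tables: ENSSSCG00000016701 for HOXA7, ENSSSCG00000021204 for HOXA10, ENSSSCG00000030585 for HOXC6, ENSSSCG00000011692 for ZIC1, ENSSSCG00000002831 for IRX3 and ENSSSCG00000009867 for TBX5.

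The study sequenced RNA of pigs aged 60 days in 92 libraries. The 83 libraries of single tissues were of psoas major, longissimus dorsi and spleen (10 each), ovary, subcutaneous adipose, kidney, liver and heart (9 each) and lung (8), and 9 further libraries were mixtures of tissues of unstated composition. The breeds were Berkshire, Hampshire, Landrace, Large White and Piétrain, which are Western, and Tibetan wild boar, Rongchang, Meishan, Jinhua and Bamei, which are Chinese. A breed gave 1 library per tissue. Lung of Rongchang was not analysed here, and of Tibetan wild boar spleen and the muscles were used. The labels give no treatment or genotype, and they do not say where along a muscle or on the body a sample was cut, how many animals a library holds, or if tissues share an animal. The error of the muscle, tissue and mixture comparisons is therefore how a difference between tissues varies from breed to breed. For breed origin it is the spread between breeds.

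HOX genes lie in clusters, and their order along a cluster follows the order in which they are used from the head end to the tail end of the embryo: genes of low paralogue number act towards the head, genes of high number towards the tail. ZIC1 is a factor of the dorsal neural tube and of dorsal somites, from which the muscles along the spine arise. IRX3 takes part in heart conduction, limb patterning and fat cell biology, and TBX5 is required for the heart, the forelimb and the lung bud.

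Levels are FPKM, fragments scaled to gene length and to the library total, which the authors deposited and which were scaled between libraries by median ratios. Without read counts the depth of a library is unknown. Library totals lay between 519075 and 2196138 FPKM, with 10175 to 14561 genes at 1 FPKM. As a check of the tissue labels, 50 of 52 marker genes had their highest median in the tissue they mark. The exceptions were CFD and ACTA1, skeletal muscle actin, which was listed at 0 in 9 of 10 longissimus dorsi and 6 of 10 psoas major libraries. A value of 0 in these tables can therefore be a failed estimate, and the members are described as listed at 0 where that is what the tables hold. The smallest value above 0 of a member lay between 0.0166 FPKM (HOXA7) and 0.0831 FPKM (HOXA10).

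Each member had its own map over the body. HOXA7 and HOXC6 were spread over muscle, kidney, ovary and subcutaneous adipose, HOXA10 was found mainly in kidney and psoas major, ZIC1 in longissimus dorsi and subcutaneous adipose, TBX5 in heart and lung, and IRX3 in heart, adipose and psoas major. Liver and spleen were low for all 6, with no library above 0.251 scaled FPKM. In bulk tissue fewer cells of a type and less RNA per cell cannot be told apart.

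**Figure D1:**
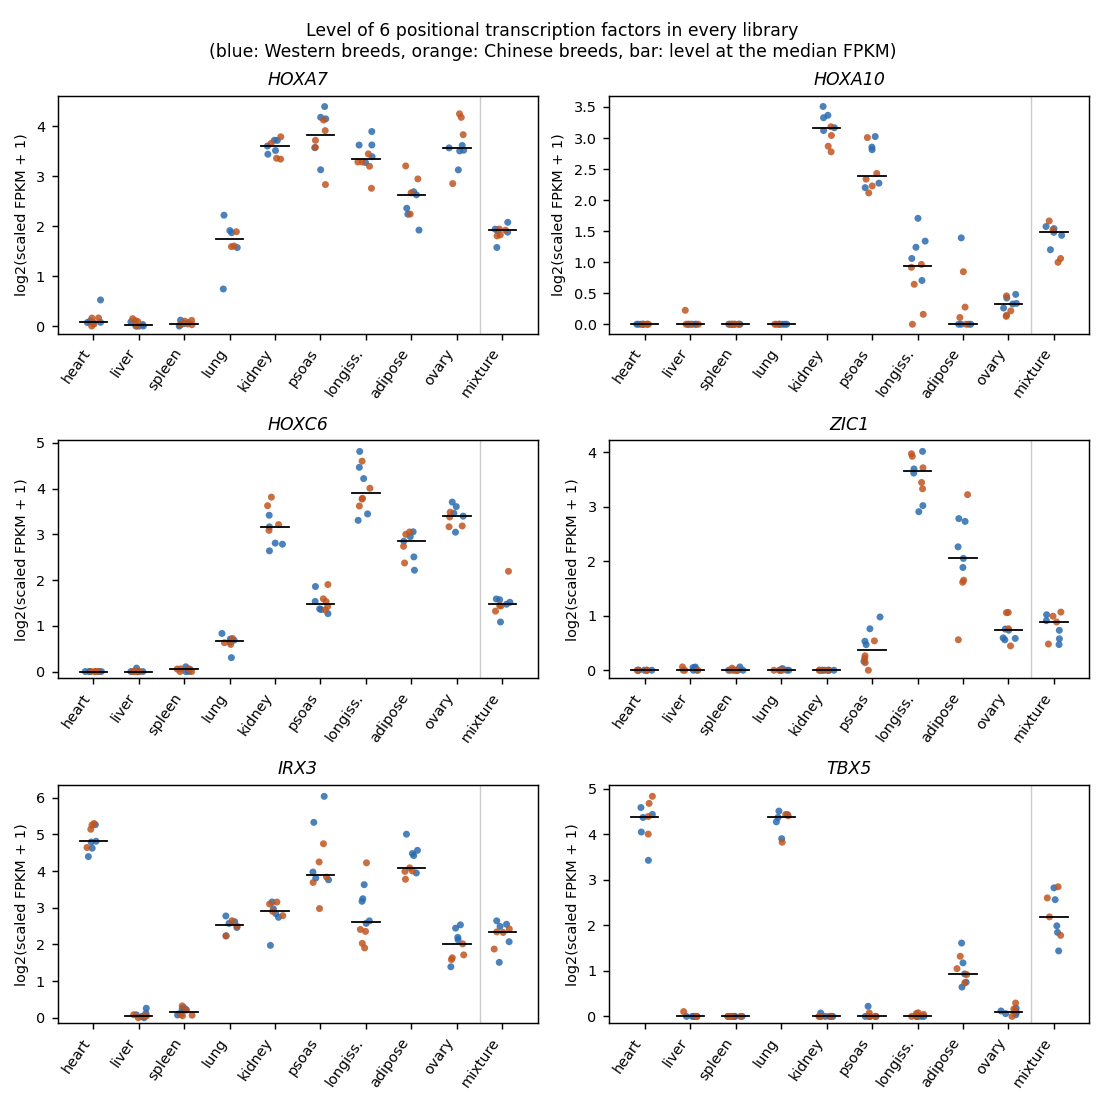
Level of each member in every library, as log2(scaled FPKM + 1), by tissue, with the mixtures at the right of each panel. A point is 1 library (1 breed, blue Western, orange Chinese) and the bar is the level at the median FPKM. HOXA10 and ZIC1 are near 0 in most tissues, and psoas major and longissimus dorsi lie far apart for HOXA10, HOXC6 and ZIC1.

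HOXA7, a gene of the middle of the HOXA cluster, was at 6.13 to 20.05 scaled FPKM in psoas major (median 13.1), 6.22 to 18.03 in ovary (median 10.9), 9.15 to 12.8 in kidney (median 11.2) and 5.77 to 13.9 in longissimus dorsi (median 9.12). These ranges overlapped, and in the order psoas major, ovary, kidney, longissimus dorsi no difference between neighbours passed in limma (linear models with moderated statistics; adjusted p = 0.249, 0.856 and 0.335). Psoas major minus ovary was 0.18 ± 0.15 (log2, SE) with scaled values and -1.08 (adjusted p = 1.13e-09) with FPKM as deposited, so the order of these 2 tissues depends on the scaling. Without Rongchang, which has the lowest HOXA7 of the psoas libraries, it was 0.37 (adjusted p = 0.0197). Subcutaneous adipose followed at 2.79 to 8.23 (median 5.18), below longissimus dorsi by 0.87 ± 0.15 (adjusted p = 3.62e-07), and lung at 0.673 to 3.66 (median 2.35). Heart, spleen and liver came last. No library of heart exceeded 0.437, none of spleen 0.0859 and none of liver 0.108.

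The scaling matters in such pairs because it moves all genes. The median of 17207 genes in psoas major minus ovary was -1.04 on deposited FPKM and -0.14 after scaling, a shift of 0.90 (log2). The shift was also 0.90 for longissimus dorsi minus ovary, 0.55 for heart minus lung and 0.16 for heart minus subcutaneous adipose, and it was 0.00 between the muscles.

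HOXA10, known for the hindlimb, the urogenital tract and the uterus, was highest in kidney, with 5.85 to 10.4 scaled FPKM (median 7.97, mean 7.98 ± 1.44, SD, n = 9). Psoas major followed with 3.33 to 7.13 (median 4.22, mean 4.93 ± 1.503, SD, n = 10). The ranges overlapped, and the difference of 0.57 ± 0.13 passed (limma adjusted p = 5.24e-05), but it did not at a pseudocount of 0.1 (0.59, adjusted p = 0.113). Longissimus dorsi was below every psoas library, at 0 to 2.26 (median 0.919), and ovary at 0.0921 to 0.396 (median 0.254). In subcutaneous adipose 5 of 9 libraries were listed at 0 and the highest, Berkshire, was at 1.62. The gene was listed at 0 in every library of heart, spleen and lung, and in 8 of 9 of liver.

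HOXC6, a gene of the middle of the HOXC cluster, was highest in longissimus dorsi, at 8.90 to 27.1 scaled FPKM (median 14.0, mean 16.0 ± 6.12, SD, n = 10). Ovary was at 7.27 to 12.1 (median 9.55), kidney at 5.23 to 13.1 (median 7.97) and subcutaneous adipose at 3.65 to 7.32 (median 6.21). Longissimus dorsi exceeded ovary by 0.63 ± 0.13 (log2, SE; limma adjusted p = 7.62e-06) with scaled values, but on deposited FPKM it was below ovary (-0.64, adjusted p = 1.05e-05). Ovary and kidney did not differ beyond their spread (0.21 ± 0.13, adjusted p = 0.134). Psoas major, at 1.41 to 2.74 (median 1.79), stood below all of these tissues and above lung, at 0.234 to 0.781 (median 0.586). Spleen reached 0.0751, liver was listed at 0 in 8 of 9 libraries and heart in all 9.

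ZIC1 was found in one of the muscles and in fat. Longissimus dorsi held 6.52 to 15.2 scaled FPKM (median 11.6, mean 11.2 ± 3.05, SD, n = 10) and subcutaneous adipose 0.474 to 8.34 (median 3.15, SD 2.42, n = 9). The Rongchang adipose library lay above the 2 lowest longissimus libraries, Berkshire and Piétrain, and the difference of 1.48 ± 0.15 passed (limma adjusted p = 1.69e-14). In this fit all 9 tissues share 1 estimate of the spread, including tissues listed at 0. The SE and p therefore understate the wide spread of ZIC1 in adipose. Ovary followed at 0.363 to 1.09 (median 0.665) and psoas major at 0 to 0.969 (median 0.293). No liver, spleen or lung library exceeded 0.0433, and kidney and heart were listed at 0 in all 18 libraries.

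The adipose libraries differed widely in ZIC1. The lowest library was Meishan at 0.474 and the next was Bamei at 2.06, while Rongchang was highest at 8.34, Landrace was at 5.88 and Berkshire at 5.64. The summed level of 4 skeletal muscle markers was 1742 in the Meishan adipose library and 22.8 to 369 in the other 8, where Rongchang had 54.6. HOXA10 was at 0.797 in that Meishan library and at 1.62 in Berkshire, whose muscle marker sum was 31.3. The part of muscle tissue in these adipose values was not tested.

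TBX5 was shared by heart and lung. Heart held 9.74 to 27.4 scaled FPKM (median 19.9, mean 19.5 ± 5.40, SD, n = 9) and lung 13.1 to 21.7 (median 19.9, mean 18.5 ± 3.22, SD, n = 8). The difference, 0.04 ± 0.10, did not pass (limma adjusted p = 0.731), but on deposited FPKM lung was higher (-0.76, adjusted p = 1.47e-10), with means of 16.5 in heart and 28.1 in lung. This SE, too, is pooled with tissues where most libraries were listed at 0. Subcutaneous adipose was at 0.562 to 2.05 (median 0.907), below lung by 3.25 ± 0.10 (adjusted p = 7.85e-42) and above ovary, which had 0 to 0.226 (median 0.0773). In every other tissue most libraries were listed at 0: 8 of 9 in liver, 8 of 9 in kidney, 8 of 10 in psoas major, 7 of 10 in longissimus dorsi and 10 of 10 in spleen. No muscle library exceeded 0.167.

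IRX3 was the most widely expressed member, at 0 in 2 of 83 tissue libraries, both of liver. Heart held 20.04 to 38.3 scaled FPKM (median 27.1, mean 29.8 ± 6.96, SD, n = 9), subcutaneous adipose 12.7 to 31.1 (median 16.0) and psoas major 6.87 to 64.7 (median 14.0). Heart exceeded adipose by 0.66 ± 0.21 (limma adjusted p = 0.00574), though not on deposited FPKM (0.34, adjusted p = 0.178), and adipose and psoas major did not differ beyond their spread (-0.01 ± 0.21, adjusted p = 0.993). Kidney at 2.93 to 7.92 (median 6.47), longissimus dorsi at 2.74 to 17.7 (median 5.10) and lung at 3.69 to 5.85 (median 4.79) formed a middle group without passing differences between neighbours. Ovary was at 1.62 to 4.79 (median 3.04). Spleen stayed between 0.0383 and 0.251, and liver reached 0.196.

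Over all pairs of tissues, the share of 36 pairs that passed was 27 for HOXA7, 26 for HOXA10, 32 for HOXC6, 26 for ZIC1, 31 for IRX3 and 20 for TBX5. Of all tests of the 17207 genes in these pairs 67.9% passed. The F test over tissues passed for all 6 members, as for 98.9% of genes. HOXA10 was higher in kidney than in each of the other 8 tissues (6.95% of genes were called in kidney by this rule), HOXC6 and ZIC1 in longissimus dorsi (2.14%) and IRX3 in heart (3.96%). As given above, the call of HOXA10 depends on the pseudocount, and those of HOXC6 and IRX3 depend on the scaling. HOXA7 and TBX5 were called in none, and 59.7% of all genes were called in some tissue. Tissue held 92.8% (IRX3) to 98.4% (TBX5) of a member's variance and breed 0.242% (TBX5) to 1.31% (IRX3), in the 72 libraries of 8 tissues and 9 breeds. The medians of all genes were 82.5% and 4.27%.

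The muscles were compared within breeds. Psoas major is a deep muscle that runs from the lumbar spine to the hip, and longissimus dorsi runs along the back on the other side of the spine. HOXA10 and IRX3 were higher in psoas major, and HOXC6 and ZIC1 in longissimus dorsi. Of the 5 members tested, 4 passed at an adjusted p under 0.05, where 27.9% of 12112 genes passed (12.1% higher and 15.8% lower in psoas major). All 4 also differed by more than 1 on the log2 scale, which 1.12% of genes did together with passing. Nothing is read from these counts, since ZIC1 and HOXA10 passed the filter on low values through the muscle where they are high. Counts of breeds that agree, and groups that do not overlap, are likewise given as description. The share of all genes that behave so is not given here, and genes outside the set, such as MYL1 and COL3A1, also differed 1 way in 10 of 10 breeds. TBX5 was below the filter of 1 FPKM in 3 libraries.

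**Figure D2:**
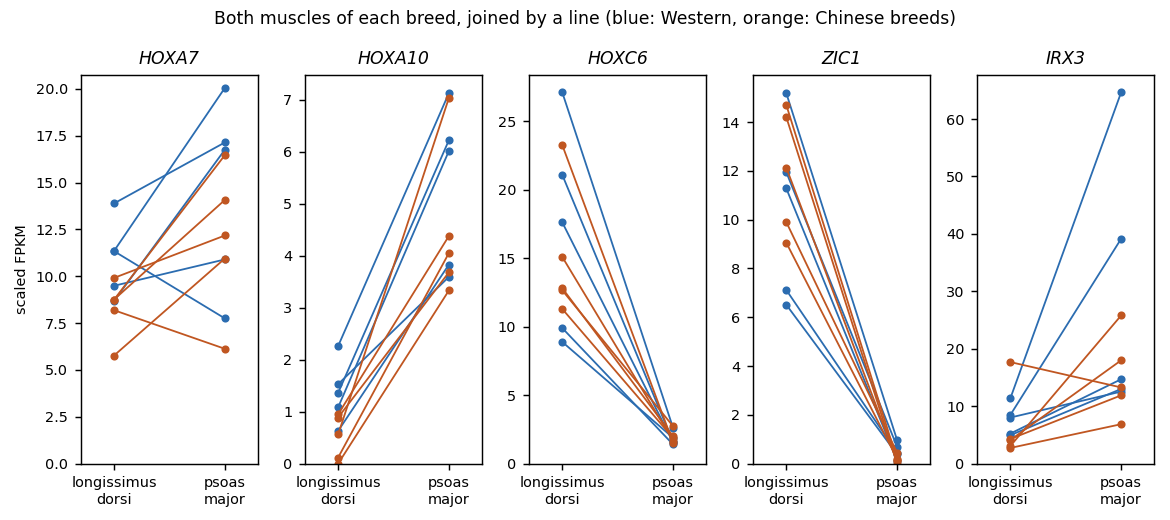
Scaled FPKM of 5 members in longissimus dorsi and psoas major, with a line joining the muscles of 1 breed (blue Western, orange Chinese). The lines for HOXA10, HOXC6 and ZIC1 run the same way in 10 of 10 breeds, IRX3 rises in 9 of 10 and HOXA7 in 8 of 10. The share of all genes that do so is not given here.

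ZIC1 in longissimus dorsi was at 6.52 (Berkshire), 15.2 (Hampshire), 11.3 (Landrace), 11.9 (Large White), 7.12 (Piétrain), 14.2 (Tibetan wild boar), 9.90 (Bamei), 14.7 (Jinhua), 9.06 (Meishan) and 12.1 (Rongchang) scaled FPKM. In psoas major of the same breeds it was at 0.385, 0.969, 0.120, 0.695, 0.446, 0, 0.453, 0.163, 0.202 and 0.101. The groups did not overlap, and the ratio of the means was 31.7, with the library listed at 0 counted as 0. The difference, psoas major minus longissimus dorsi, was -3.16 ± 0.14 on the log2(scaled FPKM + 1) scale (limma adjusted p = 2.61e-07). No psoas library reached 1 deposited FPKM, so the gene entered the test through longissimus dorsi, where it is high, and its call is given as a description. This scale understates the change of genes with low values.

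HOXC6 in longissimus dorsi was at 8.90 (Berkshire), 27.1 (Hampshire), 17.6 (Landrace), 21.1 (Large White), 9.91 (Piétrain), 15.1 (Tibetan wild boar), 12.7 (Bamei), 23.3 (Jinhua), 12.8 (Meishan) and 11.3 (Rongchang) scaled FPKM. In psoas major it was at 1.89, 2.63, 1.56, 1.59, 1.41, 1.69, 2.74, 1.54, 2.01 and 1.89. Here too the groups were apart in all breeds: psoas major lay between 1.41 and 2.74, and longissimus dorsi was higher by a factor of 4.62 (Bamei) to 15.1 (Jinhua). The ratio of means was 8.44 and the difference -2.49 ± 0.15 (limma adjusted p = 2.15e-06).

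HOXA10 went the other way. In psoas major it was at 3.83 (Berkshire), 7.13 (Hampshire), 6.02 (Landrace), 3.596 (Large White), 6.23 (Piétrain), 3.33 (Tibetan wild boar), 7.04 (Bamei), 4.06 (Jinhua), 3.68 (Meishan) and 4.38 (Rongchang) scaled FPKM. In longissimus dorsi it was at 0.630, 2.26, 1.08, 1.53, 1.36, 0, 0.562, 0.117, 0.889 and 0.950. Every psoas library was above every longissimus library, with a ratio of means of 5.25 and a difference of 1.65 ± 0.13 (limma adjusted p = 1.33e-05). It passed the filter through psoas major, as 1 longissimus library reached 1 deposited FPKM, and its call is likewise a description.

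The opposite directions of HOXC6 and HOXA10 can also be described as a ratio within each library, where no scaling between libraries enters. The ratio of HOXC6 to HOXA10 was 0.226 to 0.546 in psoas major (median 0.410, 10 libraries) and 7.28 to 198 in longissimus dorsi (median 14.1, 9 libraries, as HOXA10 was listed at 0 in Tibetan wild boar). The upper limit rests on Jinhua, where HOXA10 was at 0.117, and the next highest ratio was 22.5 (Bamei). HOXA7 exceeded HOXC6 by a factor of 3.25 to 12.9 in every psoas library (median 6.50). In longissimus dorsi the ratio of HOXA7 to HOXC6 was 0.376 to 1.27 (median 0.667), with Berkshire as the library above 1. Neither ratio overlapped between the muscles. This follows from the levels given above and is no further evidence.

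IRX3 was higher in psoas major with more spread. Psoas major was at 14.7 (Berkshire), 39.2 (Hampshire), 13.01 (Landrace), 12.6 (Large White), 64.7 (Piétrain), 17.998 (Tibetan wild boar), 13.3 (Bamei), 11.9 (Jinhua), 25.8 (Meishan) and 6.87 (Rongchang) scaled FPKM. Longissimus dorsi was at 5.24, 8.48, 4.96, 8.03, 11.4, 4.11, 17.7, 4.30, 3.08 and 2.74. The ranges overlapped, and Bamei was the 1 breed with the higher value in longissimus dorsi. The difference was 1.42 ± 0.26 (limma adjusted p = 0.00304) and the ratio of means 3.14, to which Piétrain and Hampshire contributed the highest psoas values. Without Piétrain the difference was 1.31 (adjusted p = 0.00767).

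HOXA7 was at 7.75 (Berkshire), 17.1 (Hampshire), 20.05 (Landrace), 10.9 (Large White), 16.8 (Piétrain), 10.9 (Tibetan wild boar), 16.5 (Bamei), 14.1 (Jinhua), 12.2 (Meishan) and 6.13 (Rongchang) scaled FPKM in psoas major. In longissimus dorsi it was at 11.3, 13.9, 11.3, 9.49, 8.68, 5.77, 8.75, 8.75, 9.91 and 8.19. The value in psoas major was the higher one in 8 of 10 breeds, the exceptions being Berkshire and Rongchang, and the groups overlapped. The difference of 0.38 ± 0.14 did not pass (limma adjusted p = 0.0613). It did without Berkshire (0.48, adjusted p = 0.0170), without Rongchang (0.46, adjusted p = 0.0255) and with quantile normalization (0.39, adjusted p = 0.0492).

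Markers of other tissues and cells also differed between the muscles. Among all genes 15.8% were lower and 12.1% higher in psoas major. Of 10 liver markers 9 were lower, with a summed level of 18.5 to 54.3 (median 27.0) against 24.9 to 338 (median 95.4) in longissimus dorsi. Nothing is read from this count, since liver markers such as AHSG, AMBP and TTR had a psoas median of 0. They passed the filter through longissimus dorsi, where they are higher. This does not hold for APOA1, which was well above 1 FPKM in both muscles and made up most of the psoas sum. Its mean was 26.6 in psoas major against 43.2, and it was lower there in 10 of 10 breeds (-0.67 ± 0.12, limma adjusted p = 0.00177). Of 9 fibroblast and matrix genes 8 were lower (sum 732 to 2116 against 1098 to 3417), of 4 adipocyte genes 3 (93.0 to 214 against 147 to 342) and of 3 tested muscle stem cell genes 2 (10.9 to 31.8 against 14.6 to 66.5). The adipocyte sums were mostly CFD (mean 117 against 210), whose median was higher in lung (521) than in adipose (451). PLIN1 and CIDEC, also lower, had means of 2.19 and 2.49 against 6.19 and 6.50. The stem cell sums were mostly VCAM1 (mean 17.6 against 26.4), whose highest median was in spleen (495). Neither sum is therefore a measure of the named cells alone. Of 5 tested skeletal muscle genes MYL1 (-0.60 ± 0.11) and TNNC2 (-0.57 ± 0.12) were lower, each in 10 of 10 breeds. Of 2 tested heart markers TNNT2 was lower (-1.16 ± 0.21) and MYH6 higher (0.58 ± 0.16), and of 2 tested ovary markers GDF9 was higher (0.30 ± 0.06, 10 of 10 breeds). None of the tested genes for blood vessels (3), red blood cells (2), spleen and lymphocytes (1), lung (1) or neurons and glia (1) passed. The part of these cells in the member differences was not tested.

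The other HOX genes placed these members in their clusters. Of 39 listed HOX genes 28 were matched to a gene ID and 15 were tested between the muscles: 3 were higher in psoas major, 2 were lower and 10 did not pass. This is 33.3% of the tested HOX genes, close to the 27.9% of all genes, and the median difference was 0.10, against -0.02. Among paralogue groups 1 to 5, 0 of 8 tested genes passed (HOXA3, HOXA5, HOXB2, HOXB3, HOXB4, HOXD1, HOXD3 and HOXD4). Among groups 6 to 8, 2 of 4 passed in opposite directions, and among groups 9 to 13, 3 of 3, with HOXA10 and HOXC10 higher and HOXD9 lower in psoas major. These counts are too small to compare the paralogue groups, and no test between them was made.

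**Figure D3:**
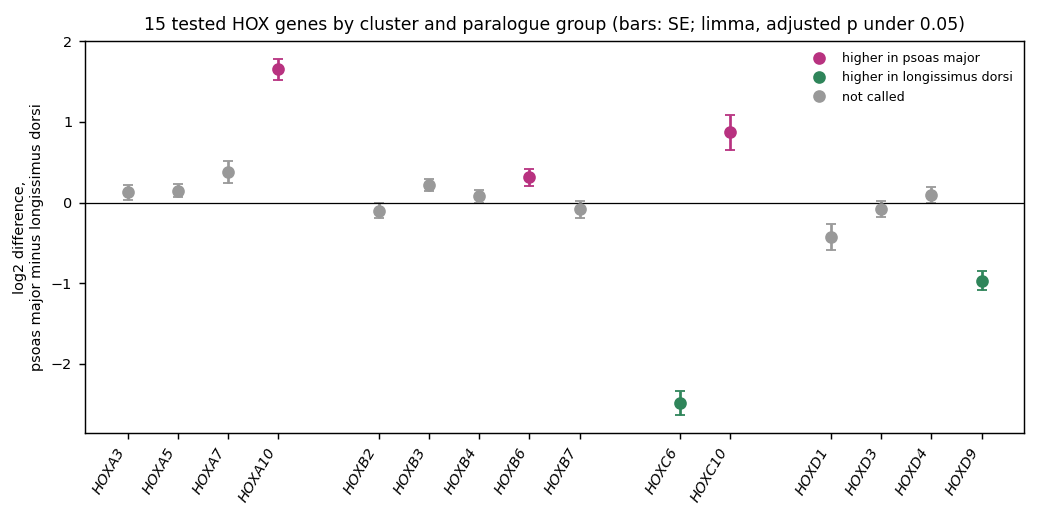
Difference between psoas major and longissimus dorsi (log2, bars are SE) for the 15 tested HOX genes, in order of cluster and paralogue number. HOXC6 (-2.49) and HOXA10 (1.65) lie farthest from 0, and HOXC6 and HOXC10 of 1 cluster lie on opposite sides.

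HOXC10, which lies towards the tail end of the cluster that holds HOXC6, had a mean of 16.9 ± 4.45 scaled FPKM in the psoas libraries against 9.67 ± 4.90 (SD, n = 10 each), higher in psoas major in 10 of 10 breeds (0.87 ± 0.22, limma adjusted p = 0.0127). HOXC11, its neighbour in number, did not reach the filter. It was at 0.200 to 3.54 in psoas major (median 0.619) and listed at 0 in 10 of 10 longissimus libraries. HOXD9 was at 6.03 ± 1.62 in psoas major and 12.6 ± 2.30 in longissimus dorsi and lower in psoas major in 10 of 10 breeds (-0.97 ± 0.12, adjusted p = 0.000255). HOXB6 was at 1.51 ± 0.370 against 1.02 ± 0.234 and higher in 8 of 10 breeds (0.31 ± 0.10, adjusted p = 0.0348). The longissimus values of HOXB6 reached 1.46 scaled FPKM at most, so it needed psoas libraries to pass the filter, and its call is a description. The differences of HOXC6 (-2.49) and HOXB6 (0.31), of the same paralogue group, had opposite signs and unlike sizes.

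In the RefSeq annotation of Sscrofa11.1, a later build than the Sscrofa10.2 of the tables, HOXA10 lies between HOXA11 and HOXA9, HOXA7 follows HOXA9, and HOXC6 lies between HOXC8 and HOXC5. HOXA9 was listed at 0 in all 83 tissue libraries, between 2 members that were not. HOXA11 was listed at 0 in 10 of 10 longissimus libraries and reached 0.0569 in psoas major. Transcripts of a HOX cluster can overlap or lie antisense to each other, and whether the counting used strand is not given in the sources used here, so reads of such partners cannot be told apart.

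Across tissues the number of HOX genes with a median of 1 scaled FPKM or more, of 28, was 1 in heart, 3 in spleen, 4 in liver, 9 in lung, 12 in subcutaneous adipose, 13 in longissimus dorsi, 14 in psoas major, 15 in ovary and 21 in kidney. On deposited FPKM the count was 2 in liver, 5 in spleen, 13 in adipose, 11 in psoas major and 12 in longissimus dorsi, and the same in the other 4 tissues. Genes of paralogue groups 9 to 13 made up 0 in heart, liver, spleen and lung, 1 in adipose, 2 in longissimus dorsi, 3 in psoas major, 3 in ovary and 6 in kidney. HOXA10 is itself among the genes counted. In the tissues without them it was listed at 0 in all or all but 1 of the libraries. Lung differed from heart, liver and spleen by a high HOXA5, at a median of 26.9.

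**Figure D4:**
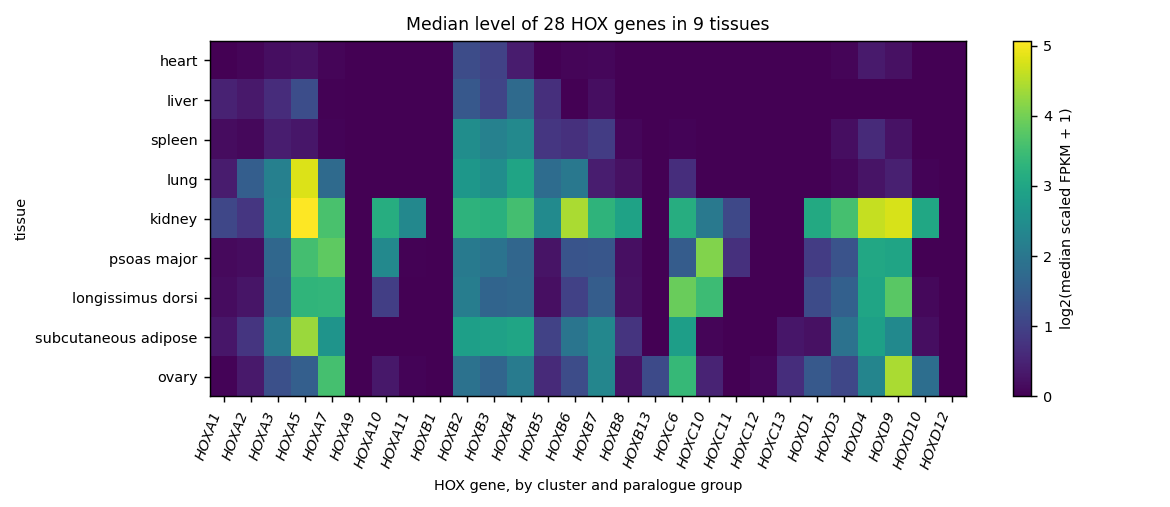
Median level of 28 HOX genes, as log2(median scaled FPKM + 1), in 9 tissues, ordered by cluster and paralogue number. Kidney carries 21 genes at 1 FPKM or more, heart 1, and psoas major and longissimus dorsi differ most visibly at HOXC6 and HOXA10.

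ZIC2, ZIC4, IRX4 and IRX6, relatives of ZIC1 and IRX3, did not reach the filter in the muscles. ZIC4, which lies next to ZIC1, was at 0.733 to 3.49 in longissimus dorsi (median 1.22) and 0 to 0.266 in psoas major (median 0.0279). All 10 longissimus libraries were above all 10 psoas libraries for ZIC4. ZIC2 was at 0.0392 to 0.493 in longissimus dorsi and 0 to 0.123 in psoas major. Of the Iroquois genes IRX4 and IRX6 were listed at 0 in 7 or 8 of 10 libraries of either muscle, and the highest values were 0.117 and 0.0941.

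Of 5 tested T-box genes 2 were higher in psoas major and none was lower, where 12.1% of all genes were higher and 27.9% passed in either direction. Nothing is read from a count over 5 genes. TBX18, a factor of the mesenchyme and of the sinus node, was at 5.27 ± 1.23 in psoas major and 2.42 ± 0.677 in longissimus dorsi, in 10 of 10 breeds (0.87 ± 0.06, limma adjusted p = 6.71e-06). TBX3, a neighbour of TBX5 in the genome and known in limb and heart conduction, was at 6.31 ± 2.03 against 3.53 ± 2.07, in 9 of 10 breeds (0.77 ± 0.13, adjusted p = 0.00121). TBX4, the hindlimb relative of TBX5, was listed at 0 in 6 of 10 psoas and 5 of 10 longissimus libraries.

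Partners and other patterning factors were tested as well. Of 3 tested HOX cofactors and upstream factors PBX3, a DNA-binding partner of HOX proteins, was lower in psoas major, at a median of 1.83 against 2.84 (-0.40 ± 0.12, limma adjusted p = 0.0283). PBX2 and GDF11 did not pass. Of 12 tested patterning factors of muscle and limb 3 passed (25.0%, below the 27.9% of all genes). LBX1, which acts in migrating muscle precursors, was at 5.74 ± 2.90 against 2.92 ± 2.26 and higher in psoas major (0.85 ± 0.11, adjusted p = 0.000380). SIX4, a muscle homeobox factor, was at 9.48 ± 3.83 against 6.61 ± 3.26 and also higher (0.49 ± 0.11, adjusted p = 0.00766). EN1, engrailed, was at 0.732 ± 0.399 against 1.87 ± 0.834 and lower in psoas major in 10 of 10 breeds (-0.71 ± 0.13, adjusted p = 0.00250). Its highest psoas value was 1.37 scaled FPKM, so it passed the filter through longissimus dorsi, where it is higher, and its call is a description. Over the 6 lists of patterning genes, members included, 14 of 38 tested genes passed (36.8%), against 27.9% of all genes. Nothing is read from these counts, since they hold genes that passed the filter through the muscle where they are high.

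Within the set, HOXA7 and HOXC6 had the most similar tissue profiles, with a Pearson correlation of 0.84 over the 83 tissue libraries, followed by HOXC6 and ZIC1 (0.68) and HOXA7 and HOXA10 (0.66). HOXA10 and ZIC1 had a correlation of -0.04. TBX5 was negatively correlated with the HOX members (-0.37 to -0.42) and with ZIC1 (-0.26), and positively with IRX3 (0.41). The libraries share breeds and fall into tissues, so these values describe the tissue pattern and carry no p.

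The genes most like each member were sought among 10586 genes with a symbol, by the same correlation. HOXD9 was nearest to both HOXA7 (0.90) and HOXC6 (0.91), followed in the list of HOXA7 by RAVER2, OSR2, HOXD4 and CCDC160 and in that of HOXC6 by OSR2, NDN, HOXA7 and CACHD1. HOXA10 was most like NRK and SLC9A2 (0.87 each), SIM1, RHCG and HOXC11, all with their highest median in kidney. ZIC1 was most like ZIC4 (0.93), then EN1 (0.79), EIF2B2, MAB21L1 and KLHL29. IRX3 was most like GULP1 (0.90), CTF1, LAMC1, OMD and TCEAL1. TBX5 was most like ZNF365 (0.94), MYZAP (0.90), PRICKLE2, B3GALT2 and EDNRA, of which ZNF365 had medians of 3.98 in lung and 2.87 in heart.

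Breed origin did not separate the members detectably. Over 8 tissues, Chinese minus Western differences of the 6 members lay between -0.20 ± 0.12 (IRX3) and 0.05 ± 0.07 (HOXC6), and 0 of 6 passed (lowest limma adjusted p = 0.603, HOXA10), where 0.318% of 16996 genes passed. Unadjusted, 0 of 6 had a p under 0.05, where 8.36% of all genes had one. Within single tissues, 26 of the 54 combinations of member and tissue could be tested, and 0 passed (lowest adjusted p = 0.390), where 0.112% of all gene and tissue tests did. Unadjusted p were under 0.05 in 4 of the 26, and in 6.65% of the 115669 tests of all genes. The first was HOXA10 in kidney, at 5.85 to 8.07 in 4 Chinese and 7.70 to 10.4 in 5 Western breeds (-0.33 ± 0.11). The others were HOXC6 in kidney, at 7.50 to 13.1 against 5.23 to 9.69 (0.47 ± 0.20), HOXA7 in longissimus dorsi, at 5.77 to 9.91 against 8.68 to 13.9 (-0.37 ± 0.16), and IRX3 in adipose, at 12.7 to 16.0 against 14.4 to 31.1 (-0.52 ± 0.19). In each of these 4 the ranges overlapped.

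The difference between the muscles was also compared between the origins. Of 12112 genes 0 passed in limma (0%; 588 had an unadjusted p under 0.05), and the 5 tested members had adjusted p of 0.907 or more. ZIC1 had the lowest unadjusted p of the 5: psoas major minus longissimus dorsi was -3.46 to -2.44 (log2) in Western and -3.93 to -2.91 in Chinese breeds, and the origins differed by -0.57 ± 0.24 (p = 0.0371 before adjustment). For HOXA10 it was 0.46 ± 0.24. With 5 breeds per origin, neither difference passed after adjustment over the 12112 genes (limma adjusted p = 0.907 for each).

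The mixtures carried all 6 members. Levels were 1.98 to 3.22 for HOXA7, 0.997 to 2.17 for HOXA10, 1.12 to 3.57 for HOXC6, 0.386 to 1.10 for ZIC1, 1.85 to 5.25 for IRX3 and 1.71 to 6.19 for TBX5 (scaled FPKM, 9 mixtures). None of the 9 was above the highest single tissue of its breed for any member. Against the mean FPKM of the 9 tissues of the breed, in the 8 breeds that have them all, 4 of 6 members were lower in the mixture, where 64.5% of 17284 genes passed (47% lower) and the median of all genes was -0.13. These were IRX3 (-1.29 ± 0.11, limma adjusted p = 6.58e-06), HOXC6 (-0.97 ± 0.07, adjusted p = 3.43e-06), HOXA7 (-0.93 ± 0.07, adjusted p = 2.60e-06) and ZIC1 (-0.64 ± 0.09, adjusted p = 0.000131). HOXA10 (0.01 ± 0.08, adjusted p = 0.906) and TBX5 (-0.27 ± 0.15, adjusted p = 0.132) did not pass.

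The result for mixtures depends on how the tissues are averaged. Against the mean of log2 values, HOXA10 was higher in the mixtures (0.60, adjusted p = 7.24e-05), TBX5 was higher (1.06, adjusted p = 0.000216), ZIC1 was at 0.02 and HOXC6 at -0.19 (adjusted p = 0.0712), while HOXA7 and IRX3 stayed lower with an adjusted p under 0.05. The tissues that went into a mixture, and their amounts, are not given.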

How the data were processed

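Total RNA of pig tissues was sequenced. The authors deposited FPKM per gene ID and library, made with TopHat and Cufflinks 2.2.1 on Sscrofa10.2, per the submitters' processing notes. The annotation, strand setting and filters are not given in the sources used here. No pair of libraries was identical. Depth is unknown, so no counting interval is given. For muscles, tissues and mixtures, p-values measure how a difference varies between breeds, each 1 library per tissue. For breed origin they measure the spread between breeds.

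Symbols were looked up by gene ID (11804 IDs had one), taking the ID of highest mean where several shared a symbol. FPKM were divided by a size factor per library, the median ratio over 12500 genes above 0 in all 92 libraries (0.523 to 1.69). A gene entered a fit if 3 or more of its libraries reached 1 FPKM. Then log2(scaled FPKM + 1) was fitted by limma 3.58.1, robust and with a variance trend, two-sided (R 4.3.3 and statmod 1.5.0), with p adjusted by Benjamini-Hochberg over all genes tested. An adjusted p under 0.05 was a call. Breed was a block in the muscle and tissue fits. The tissue fit has 1 estimate of the spread per gene over all 9 tissues. Its SE and p can therefore understate the spread of the 2 tissues compared where other tissues lie at 0. Origin was tested on the mean log2 level per breed over 8 tissues without lung, within tissues, and on the muscle difference per breed, with breeds assigned to an origin from general knowledge. A mixture was compared with log2 of the mean FPKM of the 9 tissues of its breed. For tests on differences the variance trend followed the mean level. The scripts were tested on simulated data. Tables and figures used Python 3.11.15, pandas 2.3.3, numpy 2.4.6 and matplotlib 3.10.9.

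The muscles are paired because both come from the same breed. Deviations of the same breed in both correlated at 0.325 to 0.532, and each library correlated best with its own breed in 10 of 10 cases.

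Named genes are the 6 members, the genes of 6 patterning lists that passed between the muscles (up to 8 per list), and the 5 genes with a symbol most correlated with each member. Other genes of the lists were named after their values were seen. The members and lists were chosen with earlier results of these data known. Alternatives concerned the scaling (deposited FPKM, or quantile normalization), the pseudocount (0.1), the filter (none, or 5 FPKM), the block (none), the moderation (neither robust nor trend), the breeds (each left out in turn), the reference for mixtures (mean of log2 values) and Spearman correlation. Scaling computed anew for each fit, and leaving out breeds within a tissue, were added after seeing the data. No protein, promoter or other sequence is printed, and 1 gene that the naming rule picks is not reported here.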

Additional observations from a re-analysis of the deposited data

Results flagged for a closer look

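In 11 of 53 groups of 8 to 10 libraries 1 library stood apart from the others of its tissue by Dixon's criterion. Its rate of about 1 of 20 groups holds for normally distributed values. Where all but 1 library are listed at 0 the criterion is met in any case, so 11 of 53 is not compared with that rate. In 8 of the 11 the value was below 0.5 scaled FPKM. In liver these were HOXA10 in Jinhua (0.169 scaled FPKM) and HOXC6 in Large White (0.0536), each with the other 8 livers listed at 0, TBX5 in Rongchang (0.076, the other 8 at 0) and IRX3 in Berkshire (0.196, next highest 0.0894). In heart HOXA7 was at 0.437 in Large White, where the next highest was 0.119. ZIC1 in lung was at 0.0219 in Hampshire and listed at 0 in the other 7. TBX5 was at 0.0538 in Hampshire kidney, with the other 8 at 0, and at 0.167 in Hampshire psoas major, next highest 0.0537.

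The other 3 values were higher. HOXA10 in subcutaneous adipose was at 1.62 in Berkshire, with the next highest at 0.797 and a median of 0. IRX3 in kidney was at 2.93 in Hampshire, the lowest of 9, with the next lowest at 5.67 and a median of 6.47. HOXC6 in the mixture of Jinhua was at 3.57, with the next highest at 2.01 and a median of 1.78. Among single tissues of Jinhua, longissimus dorsi had the second highest HOXC6 of its tissue, 23.3, and kidney the highest, 13.1. Psoas major (1.54) and ovary (8.09) of Jinhua were below the medians of their tissues (1.79 and 9.55). The part of any tissue in the mixture was not tested.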

How the results depend on the processing

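Of 659 values recomputed under alternatives, 624 kept their direction and their side of the threshold, or stayed within their margin. For HOXA10 all 17 alternatives of the muscle difference did (1.38 to 2.65), for HOXC6 all 18 (-2.95 to -2.24), for ZIC1 all 18 (-4.90 to -2.67), for IRX3 all 18 (1.28 to 1.62) and for HOXA7 15 of 18 (0.33 to 0.48, with the exceptions given above). Without the replicate block that pairs the muscles by breed, 638 genes passed in place of 3384, and no member changed its call. Leaving out a breed gave 0 to 1 genes in the muscle difference by origin (1 without Piétrain). Signs turned on deposited FPKM for HOXA7 in psoas major minus ovary (-1.08), HOXC6 in longissimus dorsi minus ovary (-0.64) and TBX5 in heart minus lung (-0.76, and -0.19 with quantile normalization), and for the muscle difference by origin of HOXA7 (-0.055) and HOXC6 (-0.0026). With the mean of log2 values ZIC1 (0.023) and TBX5 (1.06) in mixtures turned, and 49.2% of called genes were higher in place of 27.2%. Other sign changes came from leaving out 1 breed, in differences that did not pass. TBX5 in heart minus lung ran from -0.030 to 0.17, HOXA10 in mixtures from -0.032 to 0.062, HOXA7 by origin from -0.033 to 0.076, ZIC1 by origin from -0.12 to 0.013, and the muscle difference by origin from -0.089 to 0.32 for HOXA7 and from -0.56 to 0.21 for IRX3. The causes were not tested. With Spearman correlation 1 (TBX5) to 4 of the 5 genes most like a member were again among its 5. Values under about 0.1 FPKM lie at the floor of these tables, and 1 library per breed and tissue limits every comparison.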
